A study of Mus musculus with 10 samples.

Results

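The fibrillar collagens are the collagen chains that assemble into the striated fibrils of bone, cartilage and skin. The family was taken as the 10 genes Col1a1, Col1a2, Col2a1, Col3a1, Col5a1, Col5a2, Col11a1, Col11a2, Col24a1 and Col27a1, whose Ensembl identifiers were looked up in the deposited tables of counts and RPKM values (reads scaled by gene length and library size). All 10 were found among the 40620 genes of the count table, and all 10 passed the filter on low counts. RNA was sequenced from MC3T3-E1 cells, an immortalised line of mouse calvarial pre-osteoblasts, at 5 stages, each as a replicate A and a replicate B. The stages, in order, were subconfluent, confluent, 24 h, 14 d and 21 d. Subconfluent and confluent cells (day 0) were kept in growth medium, αMEM with 10% inactivated fetal bovine serum. The cells of 24 h, 14 d and 21 d were then kept in differentiation medium, which held ascorbic acid (50 µg/ml) and β-glycerophosphate (10 mM) in addition.

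The samples held between 44736156 and 162939333 counts on genes. The deepest libraries were replicate A of subconfluent cells and replicate B of confluent cells, and the shallowest were replicate B of subconfluent cells and replicate B of the 14 d stage, with 48799711 counts. The 2 replicates of the 24 h stage were less alike than those of any other stage, with an SD of 0.67 for the log2 ratio of A to B over the tested genes, against 0.28 to 0.32 at the other 4 stages. Replicate A of 24 h also had the highest sum of RPKM over all genes, 1561689 against 1051939 to 1321762 in the other samples. The labels do not say whether the replicates were separate cultures, so p-values measure the spread between samples, which may be technical. The libraries of the 2 late stages carried other index sequences than those of the 3 early stages. Stage and index set cannot be told apart in 14 d against 24 h, 14 d against confluent or 21 d against subconfluent cells, and the comparisons within an index set are confluent against subconfluent, 24 h against confluent and 21 d against 14 d.

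A fibrillar procollagen chain has a long helical region in which glycine recurs after each pair of other residues. Chains fold as trimers in the endoplasmic reticulum, where prolines and lysines are hydroxylated with ascorbic acid as cofactor, and are trimmed and crosslinked outside the cell. Type I collagen, made of Col1a1 and Col1a2 chains, is the main protein of bone matrix, while types III, V and XI join type I or type II in mixed fibrils and set their width.

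The label of the cells was checked against 7 osteoblast markers. Their summed level was 67.1 and 59.8 RPKM in the 2 subconfluent samples, 285 and 294 in confluent cells, 1100.3 and 1261 at 24 h, 5437 and 5576 at 14 d, and 3788 and 3616 at 21 d. Ibsp, which encodes bone sialoprotein, was the most abundant in all but the subconfluent samples, where Sp7 was (23.8 and 23.3 RPKM against 20.0 and 11.8), and none of the 7 was at 0 in any sample. The 4 endothelial markers summed to at most 0.107 RPKM, the 4 muscle markers to at most 0.67 and the 6 adipocyte markers to at most 1.13. Among blood cell markers Ptprc and Adgre1 had at most 3 counts in each sample, while Tyrobp was at 179, 214 and 256 RPKM in confluent replicate B, 14 d replicate B and 21 d replicate A and at most 0.842 in the other 7 samples. In those 7 samples the 6 blood cell markers summed to between 13.2 and 20.1 RPKM. Most of this was Lyz2, which ranged from 9.81 to 16.1 RPKM over all samples, while Csf1r ranged from 1.83 to 3.19 and Cd68 from 0.464 to 0.936. The tendon markers summed to between 12.9 and 20.2 RPKM, with Scx at 10.4 to 17.8, Mkx at 1.63 to 2.89 and Tnmd at most 3 counts in each sample.

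In these bulk samples, fewer cells that express a gene and less RNA per cell cannot be told apart. With that limit, the family took a large part of all counts at every stage, a share that grows with gene length. The 10 genes held 5.91% and 5.78% of all counts in subconfluent cells, 6.11% and 5.74% in confluent cells, 3.82% and 6.57% at 24 h, 9.34% and 8.68% at 14 d, and 5.28% and 4.99% at 21 d. Both 14 d samples lay above all other samples, and the 24 h replicates lay on either side of the other early ones. Per stage the share was 5.84% ± 0.0969 (SD, n = 2), 5.93% ± 0.263, 5.20% ± 1.94, 9.01% ± 0.461 and 5.13% ± 0.207. Counting error was small beside this, as the widest 95% Wilson interval of a sample was ± 0.0079 percentage points. Such intervals cover counting error only.

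Most of the share came from the type I chains. Col1a1 and Col1a2 were the 2 genes with the most counts in each of the 10 samples, Col1a2 first in 4 of them and Col1a1 first in 6. Together they held 89.0% ± 0.167 of the family's counts in subconfluent cells, 87.8% ± 0.0847 in confluent cells, 83.0% ± 0.498 at 24 h, 89.6% ± 1.09 at 14 d and 87.5% ± 0.158 at 21 d. The other 8 genes therefore held their highest part of the family at 24 h, where Col3a1 alone made up 10.5% ± 0.717 of it. Col11a2 went from 0.000167% ± 1.93e-05 of all counts in subconfluent cells to 0.0950% ± 0.00748 at 14 d.

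**Figure D1:**
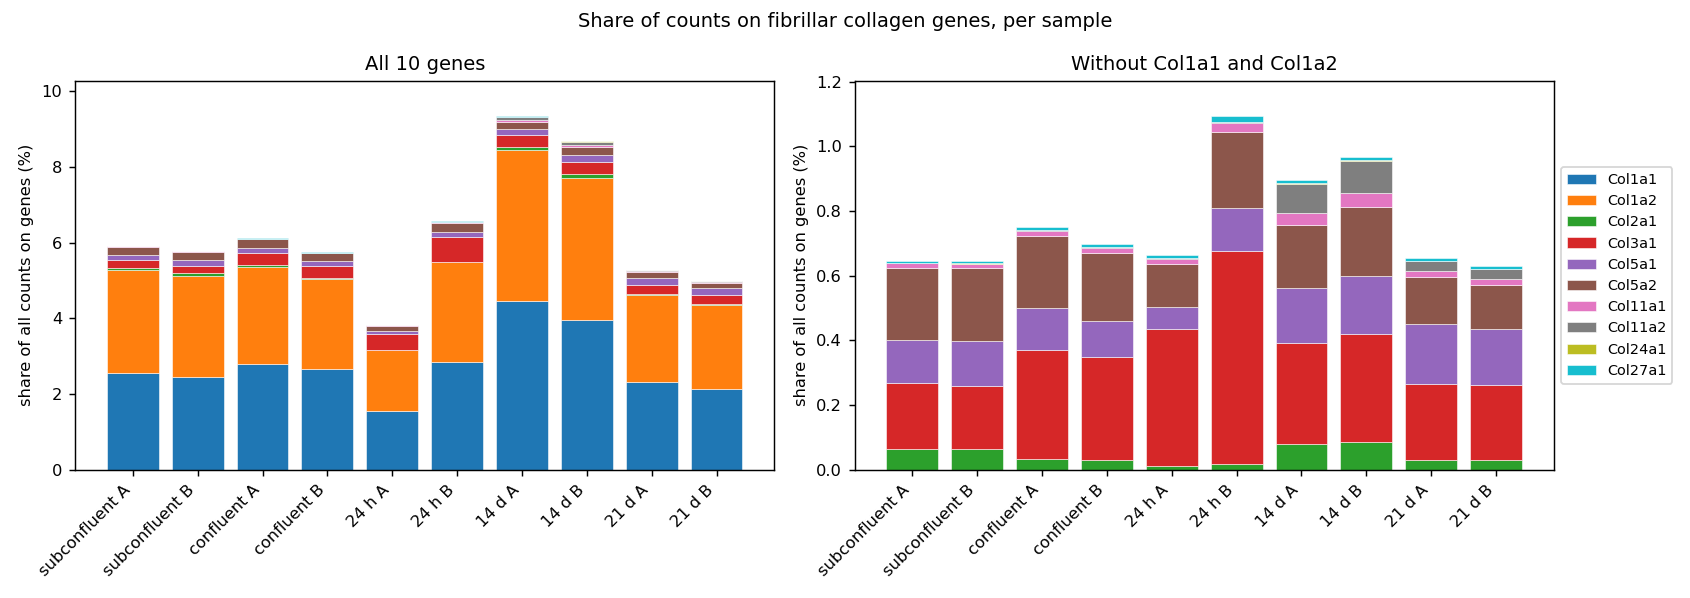
Share of all counts on genes (%, axes from 0) taken by each fibrillar collagen gene in each of the 10 samples, as stacked bars, with all 10 genes on the left and without Col1a1 and Col1a2 on the right. The 2 samples of 14 d reach 9.34% and 8.68%, and the Col11a2 segment is visible only at 14 d and 21 d.

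Levels between genes were compared as mean RPKM. Col1a1 and then Col1a2 led at every stage. Col5a2 came next in subconfluent cells and Col3a1 at the 4 later stages. Col24a1 or Col11a2 came last. Neighbours in this order did not overlap between replicates except Col2a1 and Col11a1 at 24 h and Col11a2 and Col2a1 at 14 d. Col11a2 moved most in the order, from rank 10 in subconfluent cells to rank 9 in confluent and 24 h cells, rank 6 at 14 d and rank 7 at 21 d. Among all genes with RPKM values, Col1a1 ranked 4 in subconfluent cells, 2 in confluent cells, 13 at 24 h, 3 at 14 d and 13 at 21 d.

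Col1a1 (ENSMUSG00000001506) encodes the α1 chain of type I collagen and lies on the plus strand of chromosome 11, at chr11:94936224-94953042 (GRCm38, GENCODE M21, as for all positions given here). Its level was 5655 and 5442 RPKM in subconfluent cells (A and B), 6278 and 6152 in confluent cells, 3788 and 6406 at 24 h, 10422 and 8996 at 14 d, and 5287 and 4899.9 at 21 d. Col1a2 (ENSMUSG00000029661, chr6:4504814-4541544, plus strand), which encodes the α2 chain, was at 3544 and 3478, 3384 and 3248, 2338 and 3484, 5444 and 5004, and 3086 and 2975 RPKM over the same stages. Both chains were highest at 14 d, where neither sample overlapped with any other stage, and replicate A of 24 h was the lowest of the 10 samples for each.

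Col3a1 (ENSMUSG00000026043, chr1:45311538-45349706, plus strand) encodes the single chain of type III collagen, a fibril of extensible tissues that is also found in early bone matrix. It stood at 344 and 331 RPKM in subconfluent cells, 576 and 561 in confluent cells, 791 and 1131 at 24 h, 558 and 579 at 14 d, and 411 and 403 at 21 d. Both 24 h samples were above all others, both subconfluent samples below all others, and the samples of confluent and 14 d cells overlapped. It shares 141 exon bases with Gm47302, a miRNA gene on the same strand, and lies 24614 bases from Col5a2, on the opposite strand.

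Col2a1 (ENSMUSG00000022483, chr15:97975602-98004695, minus strand) encodes the chain of type II collagen, the fibril of cartilage. Its values were 157 and 156 RPKM in subconfluent cells, 81.1 and 74.8 in confluent cells, 33.1 and 44.9 at 24 h, 202 and 210.4 at 14 d, and 73.0 and 78.4 at 21 d. The order of stages was 14 d, subconfluent, then confluent and 21 d, which overlapped, and 24 h last. Between its highest and lowest stage the mean level differed 5.28-fold.

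The type V chains start fibrils and limit their width. Col5a1 (ENSMUSG00000026837, chr2:27886425-28039514, plus strand) was at 229.8 and 234 RPKM in subconfluent cells, 227 and 202 in confluent cells, 132 and 229 at 24 h, 307 and 313 at 14 d, and 325 and 303 at 21 d. Col5a2 (ENSMUSG00000026042, chr1:45374321-45503282, minus strand) was at 397 and 405, 398 and 392, 262 and 425, 361 and 390.1, and 265 and 252 RPKM. Col5a1 was higher in all 4 late samples than in all 6 early ones, and Col5a2 was lower in the 21 d samples than in 7 of the other 8, the exception being replicate A of 24 h, which lay between them. Col5a1 shares 99 and 113 exon bases with 2810430I11Rik and Gm13372 on the opposite strand, and the sources used here do not say whether the counting used strand. These genes had mean counts of 253 and 3535 per sample against 137764 for Col5a1.

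The type XI chains do for cartilage fibrils what type V does for type I. Col11a1 (ENSMUSG00000027966, chr3:114030540-114220718, plus strand) was at 21.2 and 20.7 RPKM in subconfluent cells, 27.7 and 24.8 in confluent cells, 25.9 and 47.5 at 24 h, 65.6 and 72.7 at 14 d, and 34.5 and 32.1 at 21 d. Col11a2 (ENSMUSG00000024330, chr17:34039437-34066685, plus strand) was at 0.329 and 0.386, 3.26 and 4.68, 6.25 and 6.66, 201 and 219, and 64.2 and 64.8 RPKM. No stage of Col11a2 overlapped with another, and its 14 d mean was 588-fold that of subconfluent cells. The subconfluent values rest on 229 and 81 counts and the 14 d values on 122653 and 48919.

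Col24a1 and Col27a1 encode chains whose longest unbroken run of glycine triplets is shorter than in the others. Col24a1 (ENSMUSG00000028197, chr3:145292472-145552011, plus strand) was at 1.01 and 0.728 RPKM in subconfluent cells, 1.27 and 1.53 in confluent cells, 1.44 and 2.73 at 24 h, 5.73 and 5.13 at 14 d, and 2.10 and 2.00 at 21 d. Col27a1 (ENSMUSG00000045672, chr4:63214004-63334991, plus strand) was at 7.83 and 7.13, 10.5 and 10.8, 10.9 and 18.2, 10.8 and 10.7, and 9.58 and 9.83 RPKM. Col24a1 was above all other samples at 14 d, and Col27a1 was below all others in subconfluent cells and varied by less than 2-fold between stage means.

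**Figure D2:**
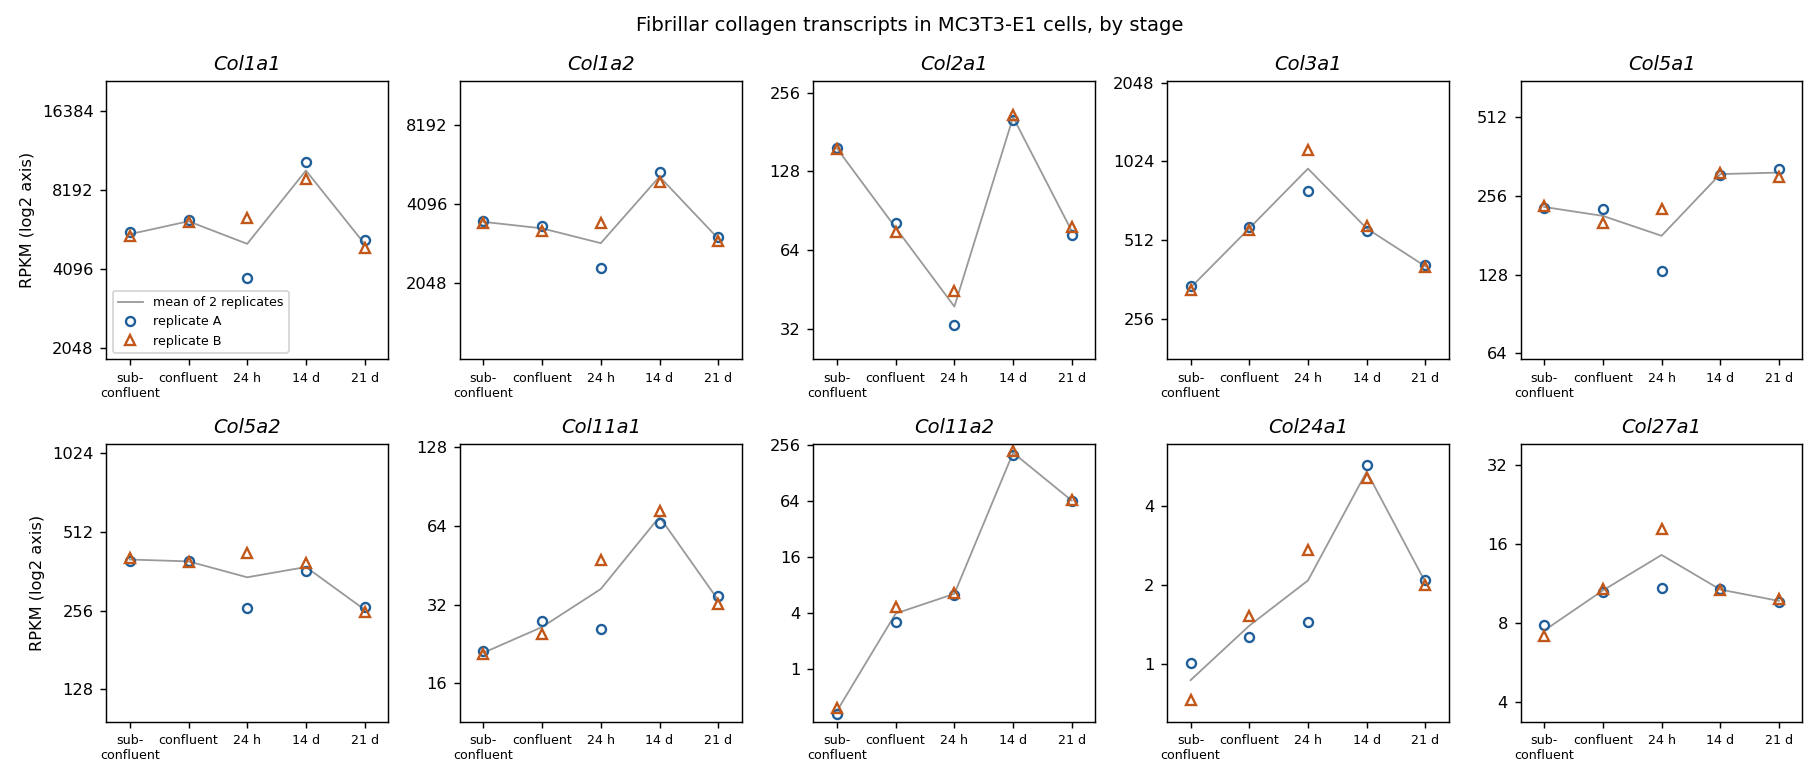
RPKM (log2 axis, range differing between panels) of each of the 10 fibrillar collagen genes at the 5 stages; circles and triangles are replicates A and B and the line joins the stage means. Of the 10 genes 6 peak at 14 d, while Col3a1 and Col27a1 have their highest mean at 24 h, and replicate A of 24 h lies below replicate B for all 10.

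Differences were tested on the counts with edgeR's quasi-likelihood test over 20808 genes, with Benjamini-Hochberg adjustment. A gene was called at an adjusted p under 0.05 and more than 2-fold change, and fold changes are log2 values ± SE. Across the 5 stages, 9 of the 10 genes differed at an adjusted p under 0.05 with no limit on fold, where 48.9% of all tested genes did. The exception was Col5a2 (edgeR, adjusted p = 0.13), which was called by DESeq2 and without 24 h A or 24 h B. Col2a1, Col3a1, Col11a1, Col11a2 and Col24a1 were called in this way under each of 19 alternatives, with adjusted p-values in edgeR's main analysis of 4.91e-05, 0.000676, 0.0018, 3.13e-06 and 0.000717. Col1a1, Col1a2, Col5a1 and Col27a1 (edgeR, adjusted p = 0.0126, then 0.00777, 0.021 and 0.0225) were called in 12, 15, 9 and 10 of the 19. The call was lost for Col1a1, Col1a2, Col5a1 and Col27a1 by limma, where the count was 5 on log2(RPKM + 1) and on log2(RPKM + 0.1). Limma called 10449 and 10398 of all 20795 genes in these fits. The same calls were lost without either 14 d replicate. With library size alone the calls of Col1a1, Col5a1 and Col27a1 were lost and the count was 6, where 10225 of all 20808 genes passed. Those calls were also lost without either subconfluent replicate. Without either 21 d replicate the call was lost for Col5a1 and Col27a1, and without confluent B for Col5a1.

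Confluent cells were compared with subconfluent cells to see what reaching a closed layer does before induction. Transcripts of Col11a2 rose 11.1-fold in mean RPKM but stayed low, and those of Col2a1 fell to 0.498 of their mean level. Among the type I and type V chains, none was called; both confluent samples were above both subconfluent ones for Col1a1 and below them for Col1a2 and Col5a1, while Col5a2 overlapped. Col3a1 was higher in both confluent samples than in both subconfluent ones but did not reach 2-fold. Of the 10 genes, 1 rose and 1 fell, where 1.0% of all tested genes rose and 0.423% fell. Col11a2 rose by 3.46 ± 0.20 (edgeR, adjusted p = 0.000533), and this was 1.86 in limma on log2(RPKM + 1). Col2a1 fell by 1.03 ± 0.13 (edgeR, adjusted p = 0.00813), a call at the edge of the fold limit. It was lost in limma on log2(RPKM + 1), at −0.998, and without subconfluent A, subconfluent B or confluent B, where edgeR gave −1.02, −1.06 and −0.98 with adjusted p = 0.0661, 0.0596 and 0.0966. Col3a1 differed by 0.73 ± 0.15 (edgeR, adjusted p = 0.0452). The median over the 10 genes was 0.22 and over all tested genes 0.00.

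The step from confluent cells to 24 h asks for the first response to differentiation medium. By RPKM, Col3a1, Col11a2 and Col27a1 stood higher in both 24 h samples than in both confluent ones, and Col2a1 stood lower in both, all by less than 2-fold in the fit. For Col27a1 the gap was small, with 24 h A at 10.88 and confluent B at 10.75 RPKM. For the type I and type V chains the 24 h replicates lay on either side of the confluent ones or overlapped with them. None of the 10 genes was called by edgeR, while 1.76% of all tested genes rose and 0.365% fell. An unadjusted p under 0.05 was reached by 6 of the 10 and by 4851 of all 20808 tested genes. An adjusted p under 0.05 was reached by 3 of the 10 and by 1072 of all. DESeq2 called 0 and limma 0 or 1, by the pseudocount, where DESeq2 called 680 of all 40620 genes and limma 178 or 357 of all 20795. The 3 were Col2a1 (−0.92 ± 0.13, edgeR adjusted p = 0.0107), Col3a1 (0.84 ± 0.15, adjusted p = 0.0211) and Col11a2 (0.79 ± 0.17, adjusted p = 0.0478). Each passed the 2-fold limit in edgeR without 1 library, Col2a1 without 24 h B (−1.07), Col3a1 without 24 h A (1.03) and Col11a2 without confluent B (1.08). Without 24 h A the sign turned for Col1a1 (−0.21 to 0.08), Col1a2 (−0.11 to 0.11), Col5a1 (−0.18 to 0.13) and Col5a2 (−0.12 to 0.14). The median over the 10 genes was 0.21 against 0.00 over all tested genes. Without 24 h B, 1016 of all genes were called higher and 1372 lower, and with only the groups compared edgeR called 0 (1824 at an unadjusted p under 0.05). Scaled by library size alone instead of TMM factors, the median over all genes moved to −0.13, the genes called higher and lower went from 367 and 76 to 264 and 104, and Col2a1 was called at −1.03.

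The next step runs from 24 h to 14 d of differentiation, and deposition of matrix was not measured. Transcripts of 5 fibrillar collagens rose, namely Col1a1, the cartilage chain Col2a1, both type XI chains and Col24a1. The largest rise among them was that of Col11a2, at 32.6-fold in mean RPKM, followed by Col2a1 at 5.28-fold. Col3a1 was lower in both 14 d samples than in both 24 h samples, by less than 2-fold. These 5 of 10 genes compare with 4.47% of all tested genes, and none of the 10 fell, where 1.51% of all did. DESeq2 and limma also called none of them lower. The log2 fold changes were 5.15 ± 0.20 for Col11a2 (edgeR, adjusted p = 3.88e-05), 2.54 ± 0.14 for Col2a1 (9.11e-05), 1.52 ± 0.27 for Col24a1 (0.0109), 1.07 ± 0.21 for Col1a1 (0.0159) and 1.06 ± 0.23 for Col11a1 (0.021). Col1a2 reached 0.98 ± 0.17 (edgeR, adjusted p = 0.00976), Col5a1 0.92 ± 0.21 (0.0247) and Col3a1 −0.62 ± 0.14 (0.0269). The median was 1.02 over the 10 genes and 0.01 over all tested genes. Col11a2 and Col2a1 were called in each of 19 alternatives.

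The other 3 calls at this step were lost in some alternatives, that of Col1a1 in 8 of 19, that of Col11a1 in 10 and that of Col24a1 in 3. Without 24 h A, Col1a1 was at 0.77 and Col11a1 at 0.72, under the 2-fold limit. Without 14 d A or 14 d B, Col1a1 was at 0.97 and 1.15 (edgeR, adjusted p = 0.108 and 0.0888), Col11a1 at 1.14 and 0.96 (0.078 and 0.127) and Col24a1 at 1.46 and 1.58 (0.0674 and 0.0618). Without subconfluent A or B, Col11a1 was at 0.997 in each case. Without 24 h B, Col1a2 was at 1.19 and Col5a1 at 1.26, over the 2-fold limit. With library size alone, with no filter and in limma the calls of Col1a1 and Col11a1 were lost and 3 members were called. With only the groups compared the call of Col24a1 was lost too and 2 were called. Calls over all tested genes went from 1245 to 1244, 1195, and 500 or 1115 in the first settings, and to 319 with only the groups compared. The sign of Col5a2 (0.27) turned without 24 h A, to −0.0026, and that of Col27a1 (−0.30) without 24 h B, to 0.0065.

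Between 14 d and 21 d the same 5 genes fell. Col1a1 came close to its level in subconfluent cells, at 0.918-fold in mean RPKM, and Col2a1 to that in confluent cells. By RPKM, both 21 d samples of Col1a1 lay below all subconfluent and confluent samples, but edgeR's fit with TMM factors put 21 d against subconfluent cells at −0.0071. Col11a2 kept a level far above that of any early stage. Col5a1 kept its level. Of the 10 genes 5 fell, where 2.45% of all tested genes did, and none rose by edgeR, DESeq2 or limma, where 1.52% of all did. Col11a2 fell by 1.78 ± 0.18 (edgeR, adjusted p = 0.00116), Col2a1 by 1.52 ± 0.13 (0.00076), Col24a1 by 1.48 ± 0.27 (0.0154), Col11a1 by 1.13 ± 0.23 (0.0223) and Col1a1 by 1.0035 ± 0.21 (0.0265). Col1a2 differed by −0.86 ± 0.17 (edgeR, adjusted p = 0.0195). The median was −0.93 over the 10 genes and −0.03 over all tested genes. These libraries share their index set.

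Col11a2 and Col2a1 were called lower at 21 d in each of 20 alternatives, Col24a1 in 16, Col11a1 in 13 and Col1a1 in 4. Without 14 d A, 14 d B, 21 d A or 21 d B in turn, edgeR gave −1.42, −1.54, −1.51 and −1.45 for Col24a1 (adjusted p = 0.0936, 0.0786, 0.111 and 0.118), −1.22, −1.04, −1.18 and −1.09 for Col11a1 (0.0841, 0.142, 0.13 and 0.154) and −0.92, −1.09, −1.06 and −0.96 for Col1a1 (0.172, 0.13, 0.151 and 0.174), and the count was 2 in each case. The call of Col1a1 was also lost without any 1 of the subconfluent or confluent libraries (−0.97, −0.97, −1.01 and −1.01), with library size alone (−0.92) and with the sum of the sequencing lanes in place of the merged column (−0.98). Without subconfluent A or B, Col11a1 was at −1.10 in each case (edgeR, adjusted p = 0.0515 and 0.0518). Col5a1 differed by −0.06 ± 0.21, and by 0.03 with library size alone.

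The 14 d cells were also set against confluent cells, the state from which differentiation started. Transcripts of the cartilage chain Col2a1, of both type XI chains and of Col24a1 rose, and in each of them both 14 d samples lay above both confluent samples. Col11a2 stood 53.0-fold higher in mean RPKM, Col24a1 3.88-fold, Col2a1 2.64-fold and Col11a1 2.63-fold. The type I chains were higher in both 14 d samples, at 1.56-fold for Col1a1 and 1.58-fold for Col1a2, but were not called. These 4 of 10 compare with 9.15% of all tested genes that rose, and none of the 10 fell by edgeR, DESeq2 or limma, where 3.85% of all did. The log2 fold changes were 5.94 ± 0.21 for Col11a2 (edgeR, adjusted p = 8.41e-06), 2.17 ± 0.28 for Col24a1 (0.00132), 1.62 ± 0.13 for Col2a1 (0.000202) and 1.62 ± 0.23 for Col11a1 (0.00208). Each of the 4 was called in all 20 alternatives, with Col24a1 at 1.42 in limma on log2(RPKM + 1). Col1a1 reached 0.86 ± 0.21 (edgeR, adjusted p = 0.0191), Col1a2 0.87 ± 0.17 (0.00715) and Col5a1 0.75 ± 0.21 (0.0309). The median was 0.87 over the 10 genes and 0.03 over all tested genes. With library size alone the median over all genes moved to −0.20, the genes called higher and lower went from 1903 and 802 to 1434 and 1447, and the values of Col3a1 (0.22), Col5a2 (0.15) and Col27a1 (0.23) turned to −0.0143, −0.0841 and −0.0016.

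Mature cells at 21 d were set against proliferating subconfluent cells. Col11a2 and Col24a1 rose, Col11a2 by 180.4-fold in mean RPKM and Col24a1 by 2.37-fold. The type I chains ended near where they began, at 0.918-fold for Col1a1 and 0.863-fold for Col1a2. Col2a1 was lower in both 21 d samples than in both subconfluent ones, at 0.483-fold. These 2 of 10 compare with 16.3% of all tested genes that rose, and none of the 10 fell, where 11.3% of all did. DESeq2 also called none lower, while limma and library size alone called Col2a1 lower. The log2 fold change was 7.62 ± 0.23 for Col11a2 (edgeR, adjusted p = 2.46e-06; 5.59 in limma on log2(RPKM + 1)) and 1.35 ± 0.27 for Col24a1 (0.00504), whose call was lost in limma on log2(RPKM + 1), at 0.71. Col2a1 reached −0.93 ± 0.13 (edgeR, adjusted p = 0.000774), Col11a1 0.78 ± 0.23 (0.0231) and Col5a2 −0.52 ± 0.18 (0.049). Col1a1 was at −0.01 ± 0.21, and at 0.04 without 21 d B. The median was 0.44 over the 10 genes and 0.04 over all tested genes. With library size alone the median over all genes moved to −0.12, the genes called higher and lower went from 3394 and 2346 to 2828 and 2951, and Col2a1 stood at −1.09.

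**Figure D3:**
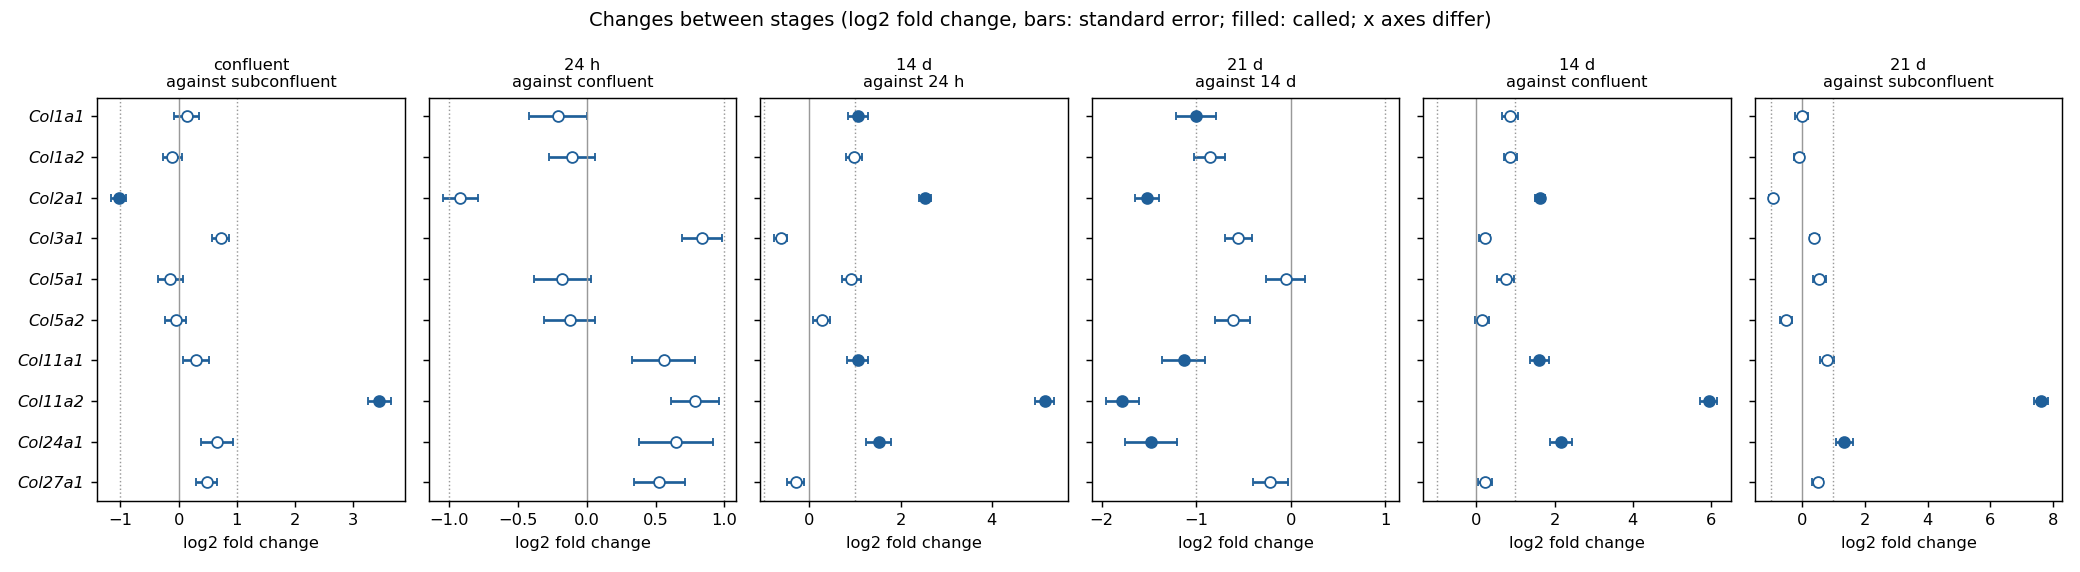
Log2 fold changes of the 10 genes in 6 comparisons of stages by edgeR, with bars of ± 1 SE, filled points for called genes and dotted lines at 2-fold; the x axes differ between panels. Col11a2 reaches 7.62 in 21 d against subconfluent cells, while Col1a1 is at −0.01.

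Chains of one trimer or one mixed fibril were compared within samples as ratios of RPKM. The type I trimer holds 2 α1 chains for each α2 chain, but protein chains were not measured here. The level of an RPKM ratio depends on the gene lengths used, which were 6511 bases for Col1a1 and 11102 for Col1a2. Without this scaling, their ratio of counts ran from 0.918 to 1.12. By RPKM, Col1a1 to Col1a2 was 1.58 ± 0.0219 (SD, n = 2) in subconfluent cells, 1.88 ± 0.0277 in confluent cells, 1.73 ± 0.154 at 24 h, 1.86 ± 0.0827 at 14 d and 1.68 ± 0.0468 at 21 d. It stayed between 1.57 and 1.92 in the 10 samples, and its differences among stages did not pass an exact permutation test over all ways to pair the samples (two-sided p = 0.0878, also 0.0878 when adjusted over 6 ratios). The other 5 ratios passed. How many ratios of other gene pairs would pass was not computed, and 48.9% of all tested genes differed among the stages in edgeR.

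Col3a1 to Col1a1 was 0.0608 ± 3.36e-05 in subconfluent cells, 0.0915 ± 0.000447 in confluent cells, 0.193 ± 0.0228 at 24 h, 0.0589 ± 0.00764 at 14 d and 0.0800 ± 0.00324 at 21 d. Type III was thus highest relative to type I in both 24 h samples, at 0.209 and 0.177, and the next sample was at 0.0918 (exact permutation, two-sided p = 0.00317, adjusted p = 0.00635).

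The type V ratios moved late. Col5a1 to Col1a1 lay between 0.0294 and 0.0430 in the 8 samples up to 14 d and at 0.0615 and 0.0618 in the 21 d samples (exact permutation, two-sided p = 0.00952, adjusted p = 0.0114). Col5a1 to Col5a2 had stage means of 0.578, 0.543, 0.521, 0.826 and 1.22, with both 14 d samples above all early samples and both 21 d samples above those (exact permutation, two-sided p = 0.00423, adjusted p = 0.00635). Col5a1 transcripts exceeded those of Col5a2 in the 21 d samples only.

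Among the type XI ratios, Col11a1 to Col5a1, chains that can replace each other in mixed trimers, was 0.0902 ± 0.00289, 0.122 ± 0.000724, 0.202 ± 0.00793, 0.223 ± 0.0132 and 0.106 ± 6.23e-05 over the stages. No 2 stages overlapped, and its p was the smallest the test can give (exact permutation, two-sided p = 0.00106, adjusted p = 0.00635). Col11a1 to Col11a2 ran the other way over the whole range, from 64.5 and 53.5 in subconfluent cells through 8.51 and 5.30 in confluent cells and 4.14 and 7.13 at 24 h to 0.326 and 0.332 at 14 d and 0.536 and 0.495 at 21 d (exact permutation, two-sided p = 0.00423, adjusted p = 0.00635). Col11a1 was the more abundant of the 2 in all early samples and Col11a2 in all late ones.

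**Figure D4:**
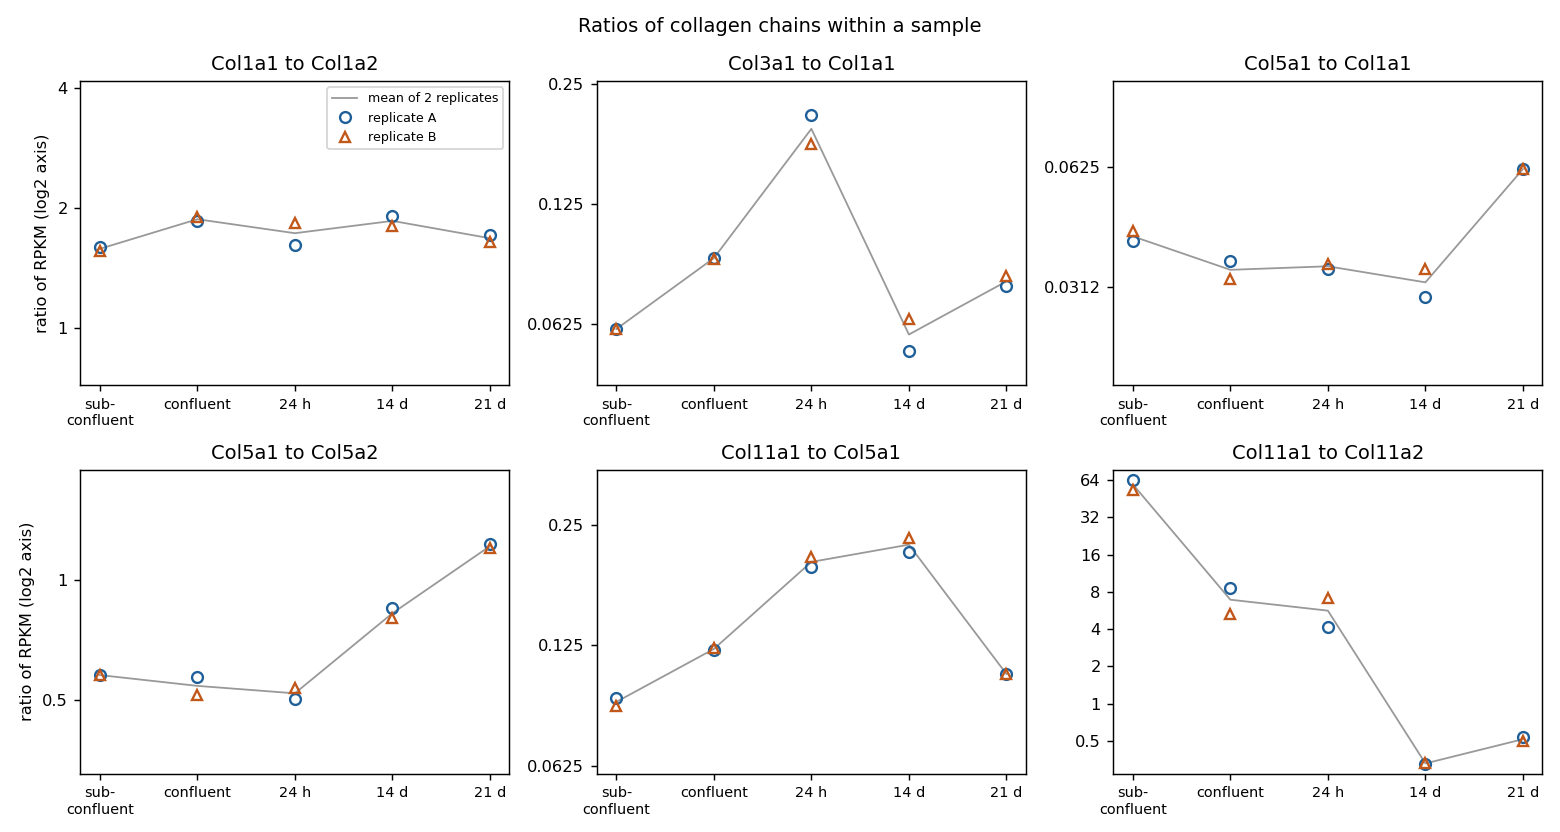
Ratios of RPKM between 6 pairs of fibrillar collagen chains at the 5 stages (log2 axes of differing range); circles and triangles are replicates A and B and the line joins stage means. Col11a1 to Col11a2 runs from 64.5 to 0.326, while Col1a1 to Col1a2 stays between 1.57 and 1.92.

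Over the 10 samples, the patterns of the members were compared with each other and with 11991 genes by Pearson's r of log2 CPM, as a description of these libraries, which share stages and index sets. Col1a1 and Col1a2 were nearest to each other (r = 0.977, n = 10), and Camkk2 was second for each (0.964 and 0.970). Col11a1 and Col24a1 were among each other's nearest 3 genes (r = 0.978, n = 10), with Vav2 (0.985) and Gpr153 (0.973) beside Col11a1 and Nhsl1 (0.977) and Pros1 (0.976) beside Col24a1. Col11a2 was nearest to Steap3 (0.995), Klhl30 (0.995) and Dlx3 (0.994), the last a homeobox factor of bone cells. Col5a1 was nearest to Neo1 (0.991), the crosslinking enzyme gene Loxl4 (0.988) and Gigyf1 (0.987), and Col5a2 to Chsy1 (0.983), Heg1 (0.980) and Nav1 (0.961). Col3a1 was nearest to Trub1 (0.967), Aspn (0.954), which encodes the collagen-binding asporin, and Myc (0.945). Col2a1 was nearest to Specc1 (0.958), Gm29164 (0.947) and Pgam1-ps2 (0.946), and Col27a1 to Celf5 (0.947), AI464131 (0.943) and Gm14401 (0.940). For the type I chains the next genes were Cyp20a1 (0.947) and Epb41l2 (0.958). Between members, Col3a1 and Col27a1 had r = 0.929, Col11a2 and Col24a1 0.906, and Col2a1 and Col3a1 −0.489 (n = 10 in each case).

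Genes that serve collagen folding, export, crosslinking and turnover were taken from lists chosen by function. Of 17 genes for folding and hydroxylation, 3 rose in 14 d against confluent cells, the same 3 in 21 d against subconfluent cells and in 14 d against 24 h, where 9.15%, 16.3% and 4.47% of all tested genes rose. They were P4ha1 and P4ha2, which encode catalytic subunits of prolyl 4-hydroxylase, and the galactosyltransferase gene Colgalt2, which was under 0.1 RPKM in each sample and whose calls were lost in 3 of 20, 2 of 20 and 8 of 19 alternatives. P4ha1 was at 32.3 and 29.7 RPKM in confluent cells and 89.7 and 106.7 at 14 d (log2 fold change 1.88), and P4ha2 at 12.9 and 12.5 and then 30.4 and 33.8 (1.55), and each was called in all alternatives. The median of the 17 was 0.38 in that comparison, also with Colgalt2 at the bound set by 3 counts, against 0.03 over all genes. The chaperone gene Serpinh1, the most abundant of them, ranged from 649.9 to 892 RPKM. Of 9 tested genes for export and cleavage, Adamts2, which encodes the procollagen I N-proteinase, rose in 14 d against confluent cells (1.22, a call lost in 3 of 20 alternatives) and in 21 d against subconfluent cells (1.32), where 9.15% and 16.3% of all tested genes rose, and Pcolce2 fell in 21 d against 14 d (−1.96), where 2.45% of all tested genes fell. In 21 d against subconfluent cells, where 11.3% fell, Pcolce2 (−1.13) and Adamts14 (−1.05) did, calls lost in 1 and 3 of 20 alternatives.

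Of 5 genes for crosslinking enzymes, Lox, Loxl2 and Loxl4 rose in 14 d against confluent cells, by 1.45, 1.74 and 1.69, where 9.15% of all tested genes rose. The call of Loxl2 was lost in both limma fits and without 14 d A. Lox fell in confluent against subconfluent cells (−1.16, a call lost in 10 of 20 alternatives), where 0.423% of all tested genes fell, and rose at 24 h against confluent cells (1.52), where 1.76% rose. The second call was lost in 3 of 19 alternatives, among them without confluent A and without confluent B. Lox stood at 110.2 and 104 RPKM in subconfluent cells, 53.6 and 43.9 in confluent cells, 101 and 163 at 24 h, and 109.8 and 119 at 14 d. At 21 d it was at 83.9 and 76.2 RPKM. Loxl2 was under 0.2 RPKM in each sample. Of 9 tested genes whose products coat or bridge fibrils, Fn1, Comp and Tnxb rose in 14 d against confluent cells (1.68, 2.63 and 5.50), where 9.15% of all tested genes rose, and with Dcn (1.42) in 21 d against subconfluent cells (2.56, 2.63 and 7.97), where 16.3% did. Tnxb was at 0.0125 and 0.0078 RPKM in subconfluent cells, 0.0449 and 0.0387 in confluent cells, and 2.50 and 2.65 at 21 d. Within the early index set, Dcn, Postn, Comp and Tnxb rose at 24 h against confluent cells (1.22, 1.42, 1.66 and 1.82), where 1.76% of all tested genes rose. These calls were lost in 1, 1, 4 and 5 of 19 alternatives, those of Comp and Tnxb also without confluent A or confluent B. Lum and Tnxb rose in confluent against subconfluent cells (1.16 and 1.87, the latter lost in 11 of 20 alternatives), where 1.0% rose. In 14 d against 24 h, where 4.47% rose and 1.51% fell, Fn1 and Tnxb rose (1.76 and 3.68) and Lum and Postn fell (−1.04 and −1.38). The call of Fn1 was lost in 3 of 19 alternatives, among them without 14 d A or 14 d B, that of Lum in 2, 1 of them without 14 d A, and that of Postn in 1. Among 7 receptor genes, Itga10 rose in 5 of the 6 comparisons, from 3.17 and 2.40 RPKM in subconfluent cells to 119 and 114 at 21 d (5.50), where 16.3% of all tested genes rose in 21 d against subconfluent cells. Its other rises were in confluent against subconfluent cells (1.85, where 1.0% rose), 24 h against confluent cells (2.44, where 1.76% rose), 14 d against 24 h (where 4.47% rose) and 14 d against confluent cells (3.50, where 9.15% rose). Its call in 14 d against 24 h (1.06) was lost in 8 of 19 alternatives, among them without 24 h A, and that at 24 h in 1 of 19. Itga1 fell in 14 d against confluent cells (−1.42, where 3.85% of all fell) and, with Itga11, in 21 d against subconfluent cells (−1.19 and −1.17, where 11.3% fell). The 2 calls of Itga1 were each lost in 2 of 20 alternatives, the first without 14 d A or 14 d B and the second with 21 d A left out. Of 5 tested genes for degradation, Mmp13, which encodes collagenase 3, rose in 14 d against confluent cells (3.06) and in 21 d against subconfluent cells (3.43), the latter together with Ctsk (1.28), where 9.15% and 16.3% of all tested genes rose.

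Of 6 genes for known regulators of collagen genes, Sp7, Creb3l1, Sox9 and Sox6 rose in 14 d against confluent cells, by 1.37, 1.04, 1.24 and 1.14, where 9.15% of all tested genes rose. The call of Creb3l1 and that of Sox6 were each lost in 7 of 20 alternatives, and that of Sox9 in 1. Sox9 was at 18.0 and 17.8 RPKM in subconfluent cells, 16.5 and 14.4 in confluent cells, 12.6 and 17.8 at 24 h, 32.3 and 30.4 at 14 d, and 36.1 and 35.1 at 21 d. Col5a3, a further type V chain and not among the 10 genes, ranged from 14.7 to 36.3 RPKM.

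The part of cartilage cells in the changes of Col2a1 and Col11a2 was not tested. The 10 chondrocyte markers summed to 27.5 and 25.8 RPKM in subconfluent cells, 25.6 and 23.9 in confluent cells, 24.1 and 30.1 at 24 h, 90.8 and 94.9 at 14 d, and 90.2 and 100.6 at 21 d. Of the 8 tested, 5 rose and 1 fell in 14 d against confluent cells, where 9.15% and 3.85% of all tested genes did, and 6 rose and 1 fell in 21 d against subconfluent cells, where 16.3% and 11.3% did. The gene that fell was Matn3 in both (−2.38 and −5.07). Its level was 3.14 and 2.76 RPKM in subconfluent cells and 0.0475 and 0.104 at 21 d. Limma on log2(RPKM + 1) called 3 in each comparison, where it called 1343 and 3396 of all 20795 genes. The call of Hapln1 was lost in 4 and 5 of 20 alternatives, among them without 14 d B in the first and without subconfluent B or 21 d B in the second. Sox9 was the most abundant on average, but Cnmd, at 0.502 and 0.763 RPKM in confluent cells, stood above it at 14 d (45.1 and 47.8) and 21 d (41.8 and 46.7). Acan reached at most 0.0206 RPKM and Matn1 had at most 3 counts in each sample, while Col9a1 reached 0.585 and Col9a2 1.75 RPKM, both at 14 d, and Col10a1 5.88 RPKM at 21 d. Of the 7 osteoblast markers, 6 rose in 14 d against confluent cells and in 21 d against subconfluent cells, where 9.15% and 16.3% of all tested genes did, and their part in the changes of the collagen genes was not tested either.

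The coding sequences show what the chains share. In the protein-coding transcript of GENCODE M21 with the longest coding sequence, each of the 10 genes has 1 long unbroken run of triplets of codons that start with a glycine codon (GGN). This run spans 338 or 339 triplets in Col1a1, Col1a2, Col2a1, Col5a1, Col5a2, Col11a1 and Col11a2 and 344 in Col3a1, but 216 in Col24a1 and 217 in Col27a1. It makes up 74.1% of the coding bases of Col1a2 and 35.3% of those of Col27a1, the highest and lowest shares. The run counted is the longest without a break, and the length of the whole helical region was not measured. All exons inside the run have lengths that are multiples of 9 bases, so that each holds whole triplets, and 54 bases is their commonest length, with 21 of 41 exons in Col1a1, 31 of 48 in Col11a1 and in Col11a2, and 24 of 35 in Col24a1 and in Col27a1. Proline codons (CCN) stand second in 20.7% to 38.2% of triplets and last in 27.7% to 41.6%, with the lowest shares in second place in Col27a1 and Col24a1. The codon GGT begins 55.9% of triplets in Col1a1 and 51.6% in Col1a2, but 21.3% in Col11a2 and 15.7% in Col27a1. One 54-base exon of the run is shown for 5 genes to let the 6 triplets be read off. The exons are exon 8 of Col1a1 (chr11:94939904-94939957, plus strand), exon 8 of Col1a2 (chr6:4515481-4515534, plus), exon 10 of Col2a1 (chr15:97996489-97996542, minus), exon 15 of Col11a2 (chr17:34051480-34051533, plus) and exon 7 of Col27a1 (chr4:63245069-63245122, plus), written from 5′ to 3′ with the first codon of each triplet, a glycine codon, in capitals.
Col1a1 exon 8: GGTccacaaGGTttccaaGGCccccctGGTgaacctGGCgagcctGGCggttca
Col1a2 exon 8: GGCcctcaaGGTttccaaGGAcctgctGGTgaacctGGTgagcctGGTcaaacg
Col2a1 exon 10: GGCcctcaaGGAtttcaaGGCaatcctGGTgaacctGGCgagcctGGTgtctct
Col11a2 exon 15: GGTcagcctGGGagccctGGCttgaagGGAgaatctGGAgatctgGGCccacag
Col27a1 exon 7: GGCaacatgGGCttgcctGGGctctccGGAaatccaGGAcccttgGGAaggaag

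Promoter sequences from RefSeq (GRCm38.p6) were matched by symbol for 7 of the 10 genes, with no entry for Col1a1, Col2a1 and Col5a2. The 250 bases before each start were searched on both strands for TATAAA (the TATA box), CCAAT (the CCAAT box), GGGCGG (a GC box) and TGTGGT (a core of RUNX sites). Of 32851 promoter windows of this length, 12.4% held TATAAA, 33.8% CCAAT, 32.7% GGGCGG and 14.0% of them held the letters TGTGGT. A match to TATAAA was found for Col11a2, 143 bases before the start, and for Col3a1, 117 bases before it. GGGCGG was found for Col1a2, Col5a1, Col11a1, Col11a2 and Col27a1 and CCAAT for Col1a2 and Col11a1, while the window of Col24a1 held none of the 4 and TGTGGT was in no window. A match is a description of letters and not a binding site. The windows of Col11a1, Col11a2 and Col24a1, which rose together at 14 d, are shown with that of Col3a1, which did not, from 5′ to 3′ on the plus strand with matches on either strand in capitals. They lie at chr3:114030290-114030539, chr17:34038888-34039137, chr3:145292222-145292471 and chr1:45311288-45311537, and the RefSeq start of Col11a2 is 299 bases before its GENCODE gene start. Those of Col1a2 and Col27a1 are 804 and 1408 bases after theirs, and 127 of the 250 bases of the Col1a2 window lie in its own GENCODE exons.
Col11a1: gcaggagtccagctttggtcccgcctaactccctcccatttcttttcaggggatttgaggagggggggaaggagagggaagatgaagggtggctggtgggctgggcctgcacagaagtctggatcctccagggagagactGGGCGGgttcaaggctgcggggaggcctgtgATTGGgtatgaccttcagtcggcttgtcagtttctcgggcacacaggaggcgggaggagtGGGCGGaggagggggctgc
Col11a2: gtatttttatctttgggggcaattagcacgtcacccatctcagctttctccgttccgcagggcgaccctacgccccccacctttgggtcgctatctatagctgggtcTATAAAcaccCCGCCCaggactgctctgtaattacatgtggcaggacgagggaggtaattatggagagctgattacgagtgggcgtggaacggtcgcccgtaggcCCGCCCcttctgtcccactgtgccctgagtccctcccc
Col24a1: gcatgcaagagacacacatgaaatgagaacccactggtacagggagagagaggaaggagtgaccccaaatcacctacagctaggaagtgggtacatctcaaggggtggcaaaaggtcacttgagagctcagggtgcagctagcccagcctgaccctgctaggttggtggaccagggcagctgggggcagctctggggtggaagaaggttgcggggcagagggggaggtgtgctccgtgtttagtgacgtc
Col3a1: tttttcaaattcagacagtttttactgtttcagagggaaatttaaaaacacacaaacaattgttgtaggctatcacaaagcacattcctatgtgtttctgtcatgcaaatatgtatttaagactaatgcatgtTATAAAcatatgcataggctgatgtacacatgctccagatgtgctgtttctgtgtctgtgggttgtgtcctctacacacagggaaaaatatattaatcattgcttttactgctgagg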

How the data were processed

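RNA of 10 samples of MC3T3-E1 cells was sequenced by the authors as 51 bp paired-end reads from total RNA. Read counts per gene were made by the authors and deposited for 40620 genes. RPKM values, scaled by the authors for gene length and reads, were deposited for 40603 genes. The labels name FastQC, TopHat2 (2.0.9), R (3.0.1) and the build mm10 without saying what each was used for, and the counting tool and its use of strand are not given in the sources used here. For the 2 libraries run in 2 lanes, 14 d A and 21 d B, the deposited merged column was used, which was not the exact sum of the lanes. In 14 d A it was 1.0675 times that sum for Col1a1, 1.0339 for Col1a2 and 1.0139 for all genes, with Col5a1 the lowest member at 0.9988. In 21 d B the values were 1.0324 for Col1a1, 1.0141 for Col1a2 and 1.0006 for all genes, and members ranged from 0.9988 (Col2a1) to 1.0506 (Col24a1). Symbols and positions came from GENCODE M21, which named 39547 of the 40620 identifiers.

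Counts were fitted in R 4.3.3 with edgeR 4.0.16 (TMM factors, filterByExpr, 1 term per stage, all 10 samples, quasi-likelihood test), with Benjamini-Hochberg adjustment over 20808 genes. Alternatives were DESeq2 (1.42.0) and its size factors, library size alone, no filter, a replicate term, only the groups compared, limma-trend (3.58.1) on log2(RPKM + 1) or log2(RPKM + 0.1), any fold change, summed lanes and each library left out in turn. A fit without the 24 h samples was added after their spread was seen. Ratios of chains were tested by exact permutation, whose smallest possible p is 0.00106. Log2 CPM for Pearson's r used a prior count of 2 and genes with a mean CPM of at least 5. The scripts were tested on simulated data. The genes, lists and comparisons were chosen with earlier results of these data known. Genes are named where they are members, belong to a list, overlap or neighbour a member, or are among the 3 nearest to a member. Glycine repeats were read from coding sequences of GENCODE M21 transcripts, since the protein table was not used, and identity between C-terminal regions was not computed.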

Additional observations from a re-analysis of the deposited data

How the results depend on the processing

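Direction held for most of the log2 fold changes, and no value that turned was called in either analysis; the cause was not tested. Called genes numbered 2, 0, 5, 5, 4 and 2 in confluent against subconfluent, 24 h against confluent, 14 d against 24 h, 21 d against 14 d, 14 d against confluent and 21 d against subconfluent cells, and 9 across the stages. In confluent against subconfluent cells 1 was called by limma on log2(RPKM + 1), where 128 of all 20795 genes were, against 297 of 20808 in the main analysis. In 24 h against confluent cells 1 was called with library size alone, 1 by limma on log2(RPKM + 0.1) and 3 at any fold change. Among all tested genes, 443 were called there in the main analysis, 368 with library size alone and 357 by that limma fit. At any fold change 1072 of all 20808 tested genes passed there. In 14 d against 24 h, 3 were called with library size alone, 3 with no filter, 2 with only the groups compared, 3 and 3 by limma and 8 at any fold change. Among all tested genes, 1245 were called there in the main analysis. With library size alone 1244 were, with no filter 1195, with only the groups compared 319, and by limma 500 and 1115. At any fold change 3597 of all 20808 tested genes passed there. In 21 d against 14 d, 3 were called with library size alone, where 838 of all 20808 tested genes were, against 826 in the main analysis. At any fold change 7 were called in 14 d against confluent cells and 5 in 21 d against subconfluent cells. Of all 20808 tested genes, 6688 and 10553 passed in these 2 comparisons. Across the stages limma called 5 and 5, where it called 10449 and 10398 of all 20795 genes. With each library left out in turn, the counts did not move in 14 d against confluent and 21 d against subconfluent cells. They moved in the other comparisons and across the stages, and the number called among all tested genes moved in these fits too. Without the 24 h samples 2, 4, 4 and 2 were called in the 4 comparisons left, where 495, 1051, 2934 and 5935 of all 19994 tested genes were. Across the stages 10 were called in that fit, where 14107 of all 19994 tested genes were. The replicate letters did not pair samples across stages, with r between −0.184 and 0.1 for the differences of A and B, and a replicate term gave 2, 0, 5, 4, 4 and 2 called genes and 9 across the stages. Among all 20808 tested genes, the fit with that term called 213, 320, 1039, 731, 2502 and 5550, and 8682 across the stages.

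Values turned with library size alone and in limma with either pseudocount for Col5a1 in 21 d against 14 d (0.0305, 0.0183 and 0.0183), for Col3a1 in 14 d against confluent cells (−0.0143, −0.001 and −0.001) and for Col5a2 there (−0.0841, −0.0721 and −0.0722), and with library size alone for Col27a1 there (−0.0016). Leaving out a 24 h library gave ranges across 0 in 24 h against confluent cells for Col1a1 (−0.5533 to 0.0824), Col1a2 (−0.3432 to 0.11), Col5a1 (−0.544 to 0.1305) and Col5a2 (−0.4324 to 0.1449), and in 14 d against 24 h for Col5a2 (−0.0026 to 0.5501) and Col27a1 (−0.5886 to 0.0065). Leaving out any library gave −0.0757 to 0.0396 for Col1a1 in 21 d against subconfluent cells. With TMM effective library sizes the family's share was 5.4036% for subconfluent, 5.5327% for confluent, 5.2359% for 24 h, 9.8675% for 14 d and 5.2981% for 21 d samples, so that the lowest stage was 24 h and not 21 d.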
